A study of Rattus norvegicus with 12 samples.

Results

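Transcript levels of 9 genes of transforming growth factor-beta (TGF-beta) signalling were examined in rat PAC1 cells: the ligand genes Tgfb1, Tgfb2 and Tgfb3, the receptor genes Tgfbr1, Tgfbr2 and Tgfbr3, the latent binding protein genes Ltbp1 and Ltbp2, and Tgfbi, whose product is named for its induction by the ligand. They were taken by gene symbol from a table of 33294 genes, and all 9 had counts. PAC1 is a rat pulmonary artery smooth muscle cell line that can be kept in a more differentiated or a more proliferative state by how often it is passaged. Poly(A) RNA was sequenced from 12 libraries in 4 groups of 3. D1 was the more differentiated culture, PAC1-D, split once a week and given a control siRNA. P was the more proliferative culture, PAC1-P, split at a higher dilution and more often, and also given a control siRNA. RBPMS KD1 was PAC1-D given siRNA against Rbpms, and MBNL KD was PAC1-D given siRNA against both Mbnl1 and Mbnl2, although its sample titles name MBNL1 only. RBPMS and the MBNL proteins are RNA-binding proteins that regulate alternative splicing. All 12 libraries came from 1 cell line in serum-containing medium, each culture received 90 pmol of siRNA, and per the labels a second dose followed after 24 h and cells were collected 48 h later, although the study's methods give longer times. P and D1 differed in passage regime and in everything that goes with it.

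TGF-beta ligands are secreted in a latent form, bound by their own propeptide and, through it, by a latent TGF-beta binding protein that tethers the complex to the extracellular matrix. Once released, the ligand binds the type II receptor kinase (Tgfbr2), which recruits and phosphorylates the type I receptor kinase (Tgfbr1), and the signal passes to the nucleus through Smad proteins, while the type III receptor betaglycan (Tgfbr3) presents ligand and helps TGF-beta 2 in particular to bind. In vascular smooth muscle the pathway is known for promoting contractile genes and matrix synthesis.

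Because transcript levels are what was measured, bases upstream of the start of transcription are shown for 4 of the genes, chosen to cover Tgfbi, a ligand, a receptor and a latent binding protein. The sequences are RefSeq promoters of the GRCr8 assembly, a later build than the mRatBN7.2 build of the counts, and windows running from 250 bases before to 50 bases after the start site were found for all 9 genes. Only the bases outside the annotated gene model are printed, on the gene's own strand, 5′ to 3′, which for Tgfbi and Ltbp1 leaves out the bases nearest the start site: Tgfbi chr17:7990235-7990363 (minus strand), Ltbp1 chr6:26177347-26177551 (minus strand), Tgfbr3 chr14:2634044-2634293 (plus strand) and Tgfb1 chr1:90324062-90324311 (plus strand). Capitals mark matches, on either strand, to the motifs named after the sequences.
Tgfbi: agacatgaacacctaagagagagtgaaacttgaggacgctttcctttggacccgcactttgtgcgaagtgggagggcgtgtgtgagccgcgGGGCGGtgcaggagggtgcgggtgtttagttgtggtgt
Ltbp1: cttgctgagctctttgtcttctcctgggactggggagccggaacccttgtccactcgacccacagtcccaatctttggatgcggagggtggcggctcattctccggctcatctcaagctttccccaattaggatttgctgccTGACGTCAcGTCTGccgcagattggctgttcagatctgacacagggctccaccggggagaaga
Tgfbr3: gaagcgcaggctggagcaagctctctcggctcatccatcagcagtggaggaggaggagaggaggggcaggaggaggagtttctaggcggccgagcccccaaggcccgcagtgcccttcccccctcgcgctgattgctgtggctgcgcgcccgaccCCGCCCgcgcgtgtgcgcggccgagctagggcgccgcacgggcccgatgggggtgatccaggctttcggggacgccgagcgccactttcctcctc
Tgfb1: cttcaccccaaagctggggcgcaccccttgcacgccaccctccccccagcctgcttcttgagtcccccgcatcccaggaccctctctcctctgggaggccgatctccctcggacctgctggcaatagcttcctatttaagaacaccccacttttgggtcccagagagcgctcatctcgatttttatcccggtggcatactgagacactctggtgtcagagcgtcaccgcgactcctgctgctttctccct

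The motifs searched were the Smad element GTCTAGAC, the shorter Smad box CAGAC, the AP-1 element TGANTCA, the cyclic AMP response element TGACGTCA, the TEAD motif GGAATG, the GC box GGGCGG, the TATA box TATAAA and the CArG box. Ltbp1 held a TGACGTCA match starting at position -108 from the start site and, separated from it by 1 base, a CAGAC match on the other strand. Of all 33469 promoter windows, 1.83% held TGACGTCA, whereas 50.1% held CAGAC. Ltbp2, whose window lies inside its longer gene model and is not printed, held 3 CAGAC matches. A GC box lay in the windows of 5 of the 9 genes (Tgfbr1, Tgfbr2, Tgfbr3, Ltbp2 and Tgfbi) against 33.1% of all windows, and the printed Tgfbi match starts at position -159. None of the motifs matched in the windows of the 3 ligand genes, which says only that these letters were not in these windows. Tgfbi had 29 CG dinucleotides in its window and Tgfbr1 had 30, where the median window had 7 and 88.5% of windows had fewer than Tgfbi. These matches are a description of sequence, and no binding was measured.

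Library totals ranged from 80842635 to 90771289 counts, and MBNL KD replicate 3 had the lowest. Levels are given below as scaled counts, which are the deposited counts divided by library size factors (TMM) and brought to a common depth. They compare 1 gene between libraries and not 2 genes with each other, because transcript length is not removed. Rbpms, the siRNA target, had 13583, 13859.8 and 12531 scaled counts in the D1 libraries against 3301, 3291 and 3404 after its knockdown, while Mbnl1 and Mbnl2 had 30403 to 31291 and 15836 to 16176 in D1 and 7266 to 7431 and 4651 to 4811 in MBNL KD. Rbpms was also low in P, at 832 to 850.1. The smooth muscle identity was present in D1, where all 8 markers (Acta2, Myh11, Tagln, Cnn1, Myocd, Mylk, Myl9 and Smtn) were counted and summed to 870347 to 914855 scaled counts. In P the same sum was 18715.5 to 19888, in RBPMS KD1 433760.0 to 449217, and in MBNL KD 694962 to 705331. Acta2 and Tagln made up most of the D1 sum (means of 446867 and 287969). All 8 were called lower in P, where 11.2% of all genes were, and 4 in RBPMS KD1, where 1.62% were. In MBNL KD 0 were called, where 10.2% of all genes were. By adjusted p alone 2 were higher and 6 lower there, with Myh11 at 145% and Cnn1 at 108% of the D1 mean. The 5 endothelial markers summed to 66.2 to 72.4 scaled counts in D1, 482 to 599.9 in P, 162 to 163 in RBPMS KD1 and 83.2 to 126 in MBNL KD. Tek and Vwf were called higher than D1 in both P and RBPMS KD1, where 16.4% and 3.06% of all genes were. Cdh5 and Kdr were at 0 in all 9 libraries outside P. Cdh5 was called higher in P, having passed the filter on low counts only through its P libraries. Kdr had at most 4 counts in a P library, and Pecam1 had means of 4.09 in D1 and 5.05 in P. Neither of these was tested. Of the 5 macrophage and leukocyte markers, which summed to 5174 to 5542 scaled counts in D1, 4331 to 4523 in P, 7493 to 7709 in RBPMS KD1 and 4663 to 4937 in MBNL KD, Cd14 made up nearly all (a mean of 5262 in D1), Csf1r went from 23.5 in D1 to 58.1 in MBNL KD, Adgre1 was at or under 3 counts in every library and Ptprc was so in every library outside P. The sum of the 5 fibroblast markers, 1277400 to 1340950 in D1, 1591850 to 1774410 in P, 1778040 to 1891500 in RBPMS KD1 and 1155890 to 1189010 in MBNL KD, was nearly all Col1a1. By adjusted p alone 3 of these 5 were higher and 1 lower than D1 in P and in RBPMS KD1, and 1 was higher and 3 lower in MBNL KD, where 77.9%, 59.1% and 67.5% of all genes passed, and Dcn, in MBNL KD, was the only one called. The 4 proliferation markers (Mki67, Top2a, Pcna and Ccnb1) had sums of 57000 to 58366 in D1, 69280 to 71190 in P, 45325 to 47123 in RBPMS KD1 and 36102 to 36357 in MBNL KD. The part of these shifts in the results below was not tested, and in bulk RNA fewer cells of a type and less RNA per cell cannot be told apart.

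The 3 ligand genes had different patterns over the 4 groups. Tgfb1, the ligand most studied in vascular cells, had 8972, 9194 and 8564 scaled counts in D1, 23135, 24559.8 and 23791 in P, 12001, 12529 and 12423 in RBPMS KD1, and 5411, 5279.6 and 5308 in MBNL KD. Every P library lay above every RBPMS KD1 library, which in turn lay above every D1 library, and MBNL KD was lowest without overlap. The means were 8910 ± 319, 23828 ± 713, 12318 ± 279 and 5333 ± 69.2 (SD, n = 3 libraries each), which put the log2 fold change against D1 at 1.41 (SE 0.029) in P, 0.47 (SE 0.029) in RBPMS KD1 and -0.74 (SE 0.029) in MBNL KD. The difference from D1 was thus positive with Rbpms siRNA and negative with Mbnl1 and Mbnl2 siRNA, and the 3 differences share the D1 libraries.

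Tgfb2, the ligand whose receptor binding depends most on betaglycan, ran the other way in P. It had 39838, 43792 and 41459 scaled counts in D1 and 8676, 8937 and 8554 in P. The D1 mean of 41696 ± 1988 against 8723 ± 196 in P (SD, n = 3) left P at 20.9% of D1, a log2 fold change of -2.26 (SE 0.030). RBPMS KD1 had 37630.5, 40119 and 41731, a range that overlapped D1, with a log2 fold change of -0.06 (SE 0.032). MBNL KD had 32350.4, 34093 and 32490.1, all below D1, with a log2 fold change of -0.34 (SE 0.030). In order of level, D1 and RBPMS KD1 were not separated, MBNL KD came next and P was far lower.

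Tgfb3, the remaining ligand gene, was highest in MBNL KD. Its scaled counts were 24481, 26465 and 25411 in D1, 25032, 24853 and 24819.5 in RBPMS KD1, 32368, 30841 and 31168 in P, and 46057, 45196 and 45228 in MBNL KD. D1 and RBPMS KD1 overlapped, with a log2 fold change of -0.03 (SE 0.027) that turned to 0.02 when the counts were quantile normalised and on the authors' normalised values. P stood above both at 0.30 (SE 0.027) and MBNL KD at 0.84 (SE 0.028) against D1, 179% of the D1 mean. The sum of the 3 ligand genes, not corrected for length, moved less than its parts, with 76059 ± 3128 scaled counts in D1, 64010.1 ± 438 in P, 77046 ± 2190.4 in RBPMS KD1 and 83804 ± 771 in MBNL KD (SD, n = 3).

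**Figure D1:**
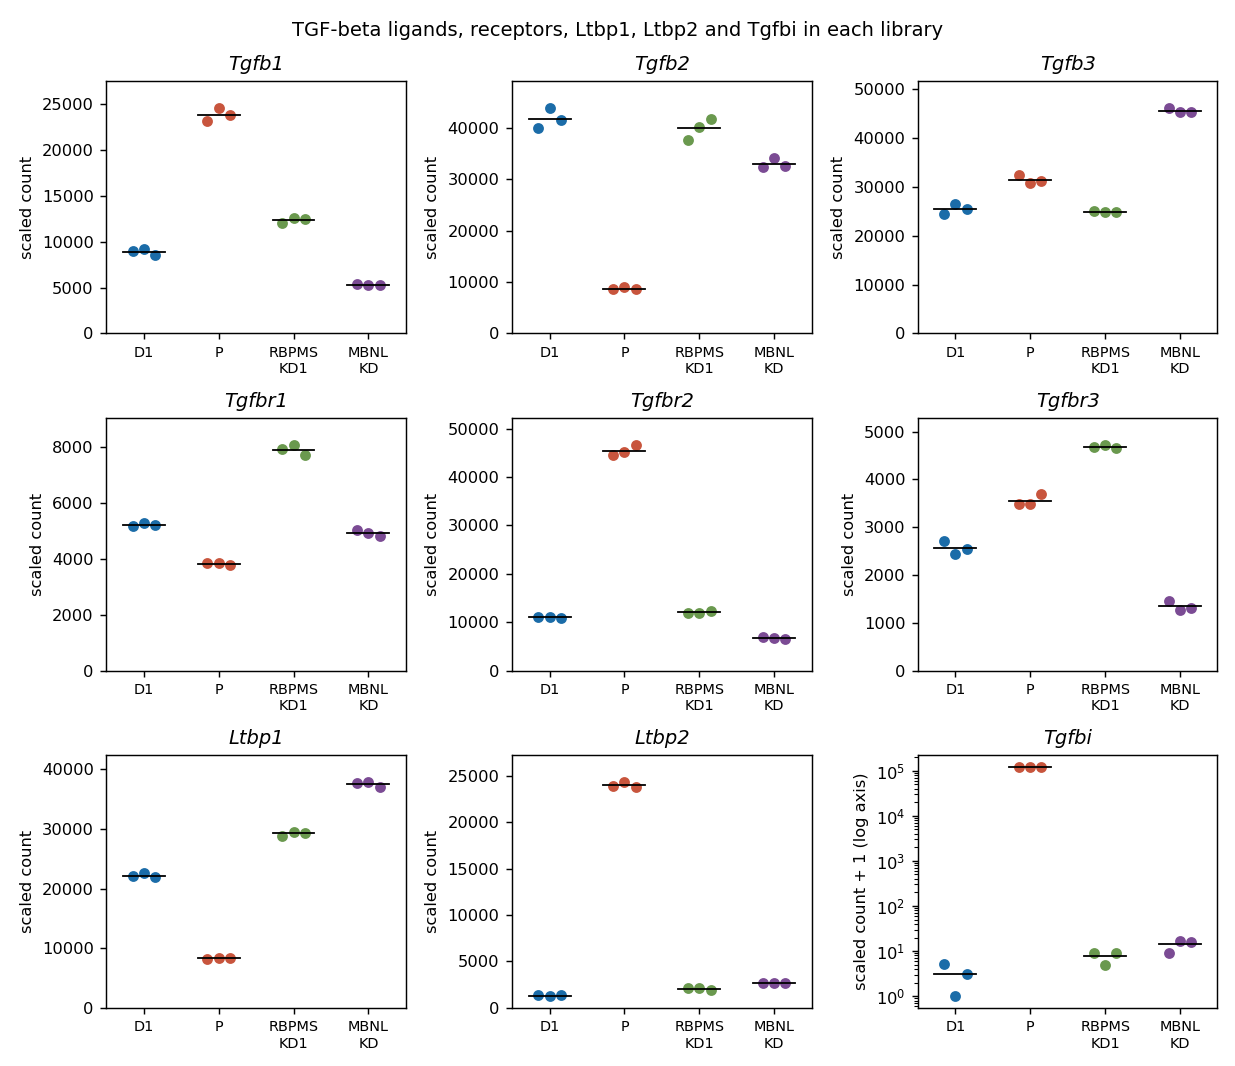
Scaled counts of the 9 genes in each of the 12 libraries, 1 panel a gene, with points for libraries and bars for group means (n = 3). All axes start at 0 except that of Tgfbi, which is logarithmic with 1 added; Tgfb1, Tgfbr2 and Ltbp2 are highest in P, Tgfb3 and Ltbp1 in MBNL KD, and Tgfbi is at least 119559 in P against at most 15.8 elsewhere.

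Among the receptor genes, Tgfbr2 differed most between P and D1. Tgfbr2, which encodes the ligand-binding type II kinase, had 11097, 11086 and 10943 scaled counts in D1 and 44589, 45185 and 46553 in P. The log2 fold change was 2.04 (SE 0.025), which put P at 412% of D1. RBPMS KD1 (11938, 11867 and 12297) lay just above D1, at 0.13 (SE 0.026), and MBNL KD (7043, 6737 and 6574) below it, at -0.70 (SE 0.026). The groups did not overlap, and the order from high to low was P, RBPMS KD1, D1 and MBNL KD, which is also the order seen for Tgfb1.

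Tgfbr1, the type I kinase that signals to Smads, was lowest in P, with 3853, 3864 and 3781 scaled counts against 5188, 5292 and 5205 in D1, a log2 fold change of -0.45 (SE 0.032). RBPMS KD1 had 7949, 8073 and 7719, above all other groups, at 0.60 (SE 0.030) against D1. MBNL KD had 5026, 4937 and 4831, close under D1 at -0.08 (SE 0.030). The kinase that recruits and the kinase that is recruited therefore differed from D1 in opposite directions in P.

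Tgfbr3, the betaglycan gene, was the receptor gene with the widest gap between the 2 knockdowns. The D1 libraries had 2716, 2437 and 2537 scaled counts, those of RBPMS KD1 4682, 4717 and 4652, and those of MBNL KD 1447, 1265 and 1319. Against D1 these were log2 fold changes of 0.87 (SE 0.039) and -0.93 (SE 0.052), both short of the 2-fold line used for calls. P, at 3479, 3479 and 3694, lay between D1 and RBPMS KD1, at 0.47 (SE 0.041). No 2 groups overlapped.

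The latent binding protein genes separated in P. Ltbp1, which encodes a carrier that covalently binds the latent complex, had 22076, 22549 and 21899 scaled counts in D1 and 8143, 8425 and 8338 in P. That left P at 37.4% of D1, with a log2 fold change of -1.42 (SE 0.026). Both knockdowns were above D1, RBPMS KD1 with 28893, 29493 and 29372 (log2 fold change 0.40, SE 0.025) and MBNL KD with 37788, 37833 and 36972 (0.76, SE 0.025). The direction in P was opposite to that in either knockdown.

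Ltbp2, a matrix protein of the same family that is known not to bind latent TGF-beta itself, had 1373, 1229.6 and 1333 scaled counts in D1 and 23899.6, 24317 and 23809.9 in P. The P mean was 24009 ± 271 against 1312 ± 73.9 in D1 (SD, n = 3), a log2 fold change of 4.19 (SE 0.034). RBPMS KD1 (2091, 2126 and 1960.4) and MBNL KD (2710.5, 2634 and 2637) were both above D1, by 0.65 (SE 0.052) and 1.02 (SE 0.047) on the log2 scale. The MBNL KD value lay so near the 2-fold line that leaving out D1 replicate 2 brought it to 0.97.

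**Figure D2:**
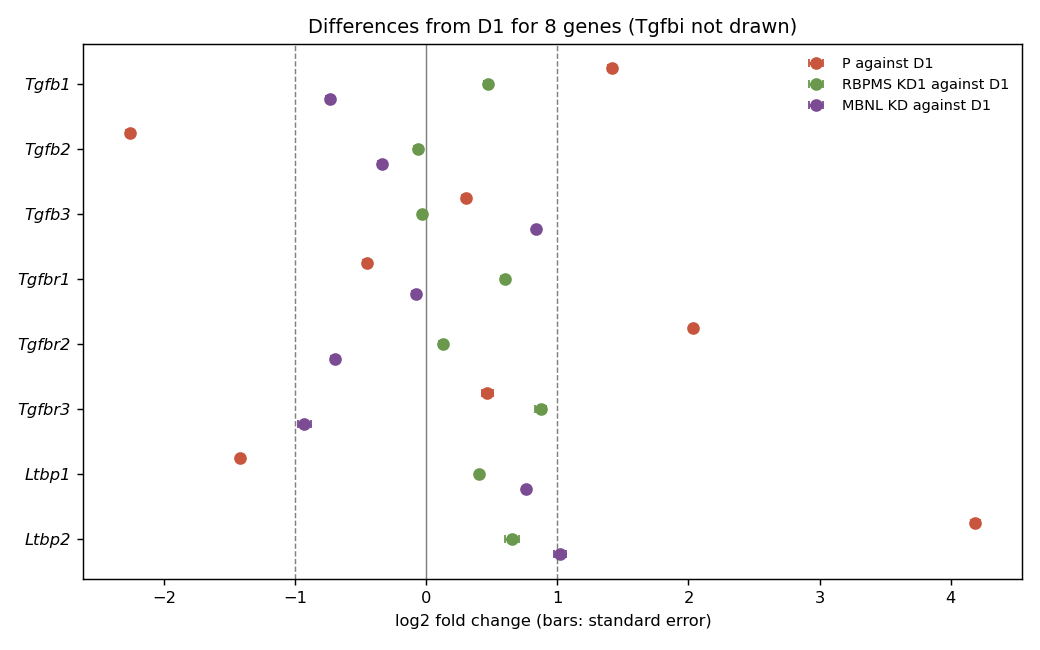
Fitted log2 fold change against D1 for 8 of the genes (x axis), with 1 row a gene, colours for P, RBPMS KD1 and MBNL KD, bars for the standard error and dashed lines at the 2-fold limits. P lies past a dashed line for Tgfb1, Tgfb2, Tgfbr2, Ltbp1 and Ltbp2, and RBPMS KD1 for none; Tgfbi, at 15.76 in P, is not drawn.

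Tgfbi, which encodes a secreted matrix protein that binds integrins and collagen, was nearly absent outside P. The deposited counts were 4, 0 and 2 in D1, 8, 4 and 8 in RBPMS KD1, 8, 16 and 14 in MBNL KD, and 128642, 126161 and 127254 in P. From the summed counts (382057 against 6, corrected for depth) P was 58906-fold above D1, with an exact 95% counting interval of 27063 to 160515 that rests on the few counts of the 3 D1 libraries. Both reads of a pair appear to have been counted (even counts outnumbered odd ones), and on halved counts the interval was 20156 to 285641. These intervals cover counting error only. The fitted log2 fold change of 15.76 (SE 0.070) depends on the small count that the model adds to each library and reached 16.67 without D1 replicate 1.

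In the knockdowns Tgfbi stayed at the edge of detection. RBPMS KD1 was 3.28-fold above D1 (exact 95% interval 1.27 to 9.99 on counts and 0.845 to 18.6 on halved counts), so at this depth a difference from D1 was not detectable once both reads of a pair were counted as 1. MBNL KD was 6.34-fold above D1 (2.66 to 18.3 on counts and 1.87 to 33.4 on halved counts), with 38 counts in 3 libraries against 6. Tgfbi did not pass the filter on low counts in any comparison without P. Its level in all 9 libraries outside P was at most 15.8 scaled counts, against at least 119559 in P.

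The 9 genes were chosen by family and role with earlier fold changes and levels of these same libraries known, Tgfbi among them for its level in P, so the counts that follow describe them and support nothing. A gene is counted as called when its adjusted p from edgeR's quasi-likelihood test (Benjamini-Hochberg over all genes tested) was under 0.05 and it differed by more than 2-fold. Between P and D1 all 9 genes were tested and 6 were called, 4 higher (Tgfbi, Ltbp2, Tgfbr2 and Tgfb1) and 2 lower (Tgfb2 and Ltbp1), where 27.6% of the 16814 genes tested were called, 16.4% higher and 11.2% lower. By adjusted p alone 6 were higher and 3 lower, where 77.9% of all genes passed, and the groups did not overlap for any of the 9, nor for 79.1% of all genes tested. The median log2 fold change was 0.47 over the 9 genes and 0.02 over all genes. The split of all calls in P depended on the scaling, with 59.4% of them higher after TMM and 45.6% after quantile normalization, whereas the same 6 genes were called under both.

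In RBPMS KD1 against D1, 8 of the 9 genes passed the filter and 0 were called, where 4.68% of 15904 genes were (3.06% higher and 1.62% lower). At an adjusted p under 0.05 with no fold limit 6 were higher and 0 lower, the same number as at an unadjusted p under 0.05, against 59.1% of all genes past that p in either direction. Groups were separate for those 6, and for 63.4% of all genes. DESeq2 on the same genes also called 0. In MBNL KD against D1, Ltbp2 was the only one of 8 called, where 10.2% of 16053 genes were (6.1% higher and 4.14% lower). By adjusted p alone 3 were higher (Tgfb3, Ltbp1 and Ltbp2) and 5 lower, against 67.5% of all genes, and groups were separate for all 8 and for 70.3% of all genes. Without D1 replicate 2, Ltbp2 was no longer called, and Tgfbi passed the filter and was called without D1 replicate 1, D1 replicate 2, D1 replicate 3 or MBNL KD replicate 1. Leaving out a library loosens the filter, and Tgfbi passed it only through its 16 and 14 counts in MBNL KD replicates 2 and 3. These calls of Tgfbi are therefore no test of the knockdown. Median log2 fold changes were 0.44 for the RBPMS knockdown and -0.21 for the MBNL knockdown over the 8 genes, with 0.0043 and 0.0099 over all genes.

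Set directly against each other, the 2 knockdowns differed more than 2-fold in a ligand gene and a co-receptor gene. MBNL KD was below RBPMS KD1 for Tgfbr3, by a log2 fold change of -1.81 (SE 0.044), and for Tgfb1, by -1.21 (SE 0.027). These 2 of the 8 genes tested were called, where 11.9% of 16111 genes were (5.88% higher and 6.03% lower). By adjusted p alone 3 of the 8 were higher and 5 lower, where 69.5% of all genes passed. Tgfbr2 (-0.83, SE 0.028) and Tgfbr1 (-0.69, SE 0.030) were also lower in MBNL KD, whereas Tgfb3 was higher, at 0.86 (SE 0.026). The groups did not overlap for any of the 8 genes, nor for 71.8% of all genes tested, and the median was -0.48 over the 8 genes and 0.01 over all genes.

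Ratios of counts within a library do not depend on the scaling, although gene length enters their level, so that only their change between groups can be read. Counts of Tgfb2 to Tgfb1 were 4.68 ± 0.212 in D1 and 0.366 ± 0.00798 in P (SD, n = 3), and stood at 3.23 ± 0.115 in RBPMS KD1 and 6.19 ± 0.246 in MBNL KD. The ratio of Tgfb3 to Tgfb1 was 2.86 ± 0.121 in D1, 1.32 ± 0.0724 in P, 2.02 ± 0.0553 in RBPMS KD1 and 8.53 ± 0.0258 in MBNL KD. Relative to Tgfb1, both other ligand transcripts were therefore lowest in P and highest in MBNL KD. Tgfb2 to Tgfb3 gave 1.64 ± 0.0148 in D1 and 1.60 ± 0.0899 in RBPMS KD1, which overlapped, against 0.725 ± 0.0266 in MBNL KD and 0.277 ± 0.0112 in P.

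The receptor ratio shifted most in P. Tgfbr2 to Tgfbr1 was 2.11 ± 0.0237 in D1, 11.9 ± 0.396 in P, 1.52 ± 0.0639 in RBPMS KD1 and 1.38 ± 0.0224 in MBNL KD. Tgfbr3 to Tgfbr2 was 0.232 ± 0.0125 in D1, 0.0781 ± 0.00118 in P, 0.389 ± 0.00989 in RBPMS KD1 and 0.198 ± 0.00914 in MBNL KD. Transcripts of the type II kinase thus gained on both other receptors in P and lost to both in RBPMS KD1. Ltbp2 to Ltbp1 was 0.0592 ± 0.00409 in D1 and 2.89 ± 0.0400 in P, with RBPMS KD1 (0.0704 ± 0.00317) and MBNL KD (0.0709 ± 0.00112) slightly above D1.

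**Figure D3:**
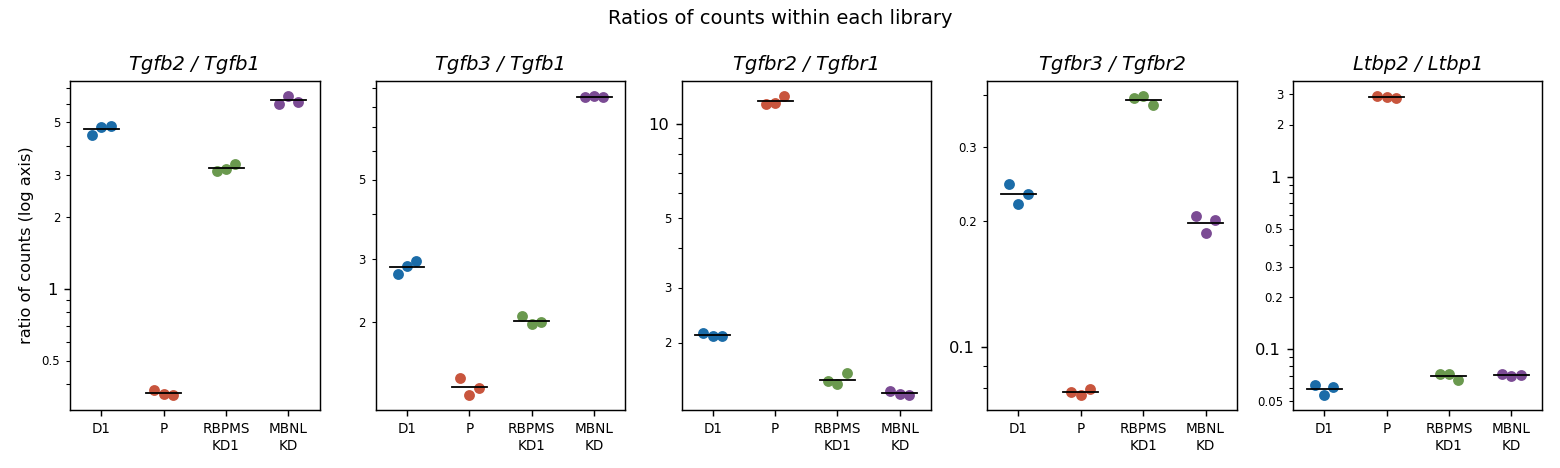
Ratios of deposited counts within each library (y axis, logarithmic, a separate range in each panel) for 5 pairs of genes, with points for libraries and bars for means (n = 3). P has the lowest Tgfb2 to Tgfb1 ratio, 0.366, and the highest Tgfbr2 to Tgfbr1 and Ltbp2 to Ltbp1 ratios, 11.9 and 2.89, and Tgfb3 to Tgfb1 is highest in MBNL KD at 8.53.

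Likeness of pattern was measured as the root mean square difference between mean-centred log2 values (with 3 added) over the 12 libraries, and is given without a test. Among the 9 genes, Tgfb1 and Tgfbr2 were each other's nearest, at 0.348. So were Tgfb2 and Ltbp1 at 0.415, and Tgfb3 and Tgfbr1 at 0.621. Tgfbr3 was nearest to Tgfb1 (0.494) and Ltbp2 to Tgfbr2 (0.873), while Tgfbi was far from all the others, with Ltbp2 nearest at 4.39. Among 13405 genes that reached 100 scaled counts in a group, the 5 most like Tgfbi were Sohlh2 (0.885), Fkbp6 (1.15), Rbm46 (1.22), Kif26a (1.297) and Adad2 (1.36). Each of them averaged at most 3.38 scaled counts outside P, against 17704 for Sohlh2 and 6556 for Adad2 in P.

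Other genes of the pathway were read from 5 lists of 71 genes, of which 70 were in the table. Between P and D1, 66 were tested and 26 were called, 7 higher and 19 lower, or 9 and 15 after quantile normalization, beside the 27.6% of all genes called. Their median log2 fold change was -0.33. Of 15 genes of latency and activation tested, 0 rose past 2-fold by edgeR (by adjusted p alone 2 were higher and 13 lower, where 77.9% of all genes passed) and 5 fell: the small proteoglycan gene Fmod (-3.93, SE 0.033), the integrin subunit genes Itgb6 (-3.19, SE 0.286) and Itgb8 (-1.15, SE 0.047), the fibrillin gene Fbn1 (-2.70, SE 0.024) and Emilin1 (-1.05, SE 0.027). Fibrillin microfibrils are known to hold latent complexes, and Fbn1 had a D1 level of 220296 ± 3354 and a P level of 33908 ± 355 scaled counts (SD, n = 3, edgeR adjusted p = 9.8e-40). Among 9 other receptor genes tested, Acvr2b (-1.49, SE 0.085), the decoy receptor gene Bambi (-1.47, SE 0.055) and the endoglin gene Eng (-1.06, SE 0.027) fell and Acvr1c rose from at most 2 counts a library to 14 to 20. Acvr1c passed the filter on low counts only through these P libraries, so its call is a description. Of the related ligands Inhba, an activin subunit gene, fell (-1.14, SE 0.030).

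Of the 16 Smad genes and regulators, 3 were called in P, where 27.6% of all genes were, and by adjusted p alone 7 were higher and 7 lower, where 77.9% of all genes passed. Smad3, a receptor-activated Smad, rose from 4001 ± 221 to 8201 ± 47.4 scaled counts (log2 fold change 1.03, SE 0.033, edgeR adjusted p = 5.7e-24), the co-repressor gene Skil rose by 1.03 (SE 0.029) and Tgif2, another co-repressor, fell by 1.03 (SE 0.062), and the other 13 of 16 were not called. Of the inhibitory Smad genes, Smad6 stood just under the 2-fold line at 0.97 (SE 0.043), and Smad7, which the pathway itself induces, at 0.05 (SE 0.035, edgeR adjusted p = 0.15).

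The 25 genes listed as targets split in P, with 5 called higher and 9 lower, where 16.4% of all genes were called higher and 11.2% lower. By adjusted p alone 10 were higher and 12 lower, where 77.9% of all genes passed. Among the higher were the matricellular gene Postn (2.62, SE 0.043), Fstl3 (2.52, SE 0.335), Junb (1.17, SE 0.032) and Skil. Lower were the contractile genes Acta2 (-6.77, SE 0.036), Cnn1 (-6.11, SE 0.113) and Tagln (-5.71, SE 0.029), which are also smooth muscle markers, the matricellular gene Ccn2, Snai2 (-2.72, SE 0.048), Cdkn1a, Fn1, Col3a1 and Dact1. Ccn2 had 99642 ± 3656 scaled counts in D1 and 12494 ± 82.7 in P, whereas Postn had 1138 ± 53.0 and 7044 ± 379 (SD, n = 3). Genes commonly used as readouts of the pathway thus stood on both sides of D1, and Tgfbi on the same side as Postn.

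In RBPMS KD1 against D1, 3 of 65 pathway genes tested were called, where 4.68% of all genes were: Postn rose by 1.24 (SE 0.048), and Cnn1 (-1.47, SE 0.064) and Acta2 (-1.11, SE 0.027) fell. With quantile normalization 2 were called, 1 in each direction, and with no filter on low counts 2 were called in each direction. In the main edgeR fit no gene of latency, no other receptor, no related ligand and no Smad gene was called. By adjusted p alone 30 of the 65 pathway genes were higher and 21 lower in that fit, where 59.1% of all genes passed.

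In MBNL KD against D1, 8 of 65 pathway genes were called, 5 higher and 3 lower, where 10.2% of all genes were. Thbs1, which encodes the latent TGF-beta activator thrombospondin, rose from 104779 ± 5260.1 to 330833 ± 4952 scaled counts (log2 fold change 1.66, SE 0.025, edgeR adjusted p = 1.7e-29). Htra1, a secreted serine protease gene (-1.47, SE 0.026), and Dcn, which encodes the ligand-binding proteoglycan decorin (-1.24, SE 0.068), fell. Among activin and inhibin subunits, Inhba rose by 1.33 (SE 0.026) and Inhbb fell from 5116 ± 71.9 to 2073 ± 125 scaled counts. Of the targets 3 rose, among them Postn (2.31, SE 0.041) and Ccn2 (1.08, SE 0.023), and 0 of 25 fell past 2-fold by edgeR, and by adjusted p alone 14 were higher and 6 lower, where 67.5% of all genes passed.

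Between the knockdowns, 8 of 65 were called, 5 higher and 3 lower in MBNL KD, where 11.9% of all genes were. Those higher in MBNL KD included Cnn1 (1.58, SE 0.064), Inhba (1.56, SE 0.028), Thbs1 (1.31, SE 0.020) and Postn (1.07, SE 0.036), and Dcn (-1.95, SE 0.062), Htra1 (-1.302, SE 0.029) and Inhbb (-1.17, SE 0.042) were lower. The median over the 65 was 0.06.

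**Figure D4:**
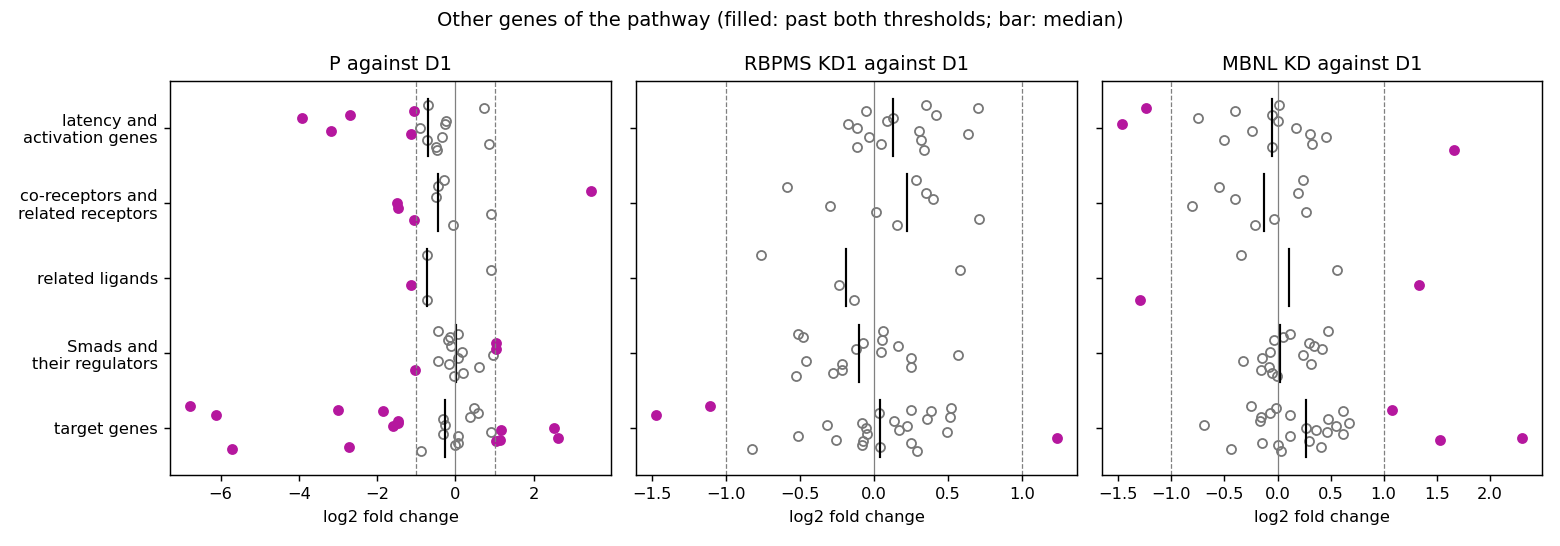
Fitted log2 fold change against D1 (x axis, a separate range in each panel) of the other pathway genes in 5 lists (rows), with a point a gene, filled where the gene was called, dashed lines at the 2-fold limits and a black bar at the list's median. In P 26 of 66 are filled, most of them left of 0, in RBPMS KD1 3 of 65 and in MBNL KD 8 of 65.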

How the data were processed

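Cells were taken through reverse transfection, TRI-reagent lysis, poly(A) selection and a directional library kit. Per the labels and methods, the authors subsampled the reads, aligned them to the rat mRatBN7.2 build with STAR 2.7.11b and counted reads per gene with featureCounts. The strand setting and the treatment of mates are not given in the sources used here. The deposited count table holds raw counts, and in it even counts were commoner than odd ones, so halved counts were an alternative. The authors also deposited a normalised signal table of 19812 genes, noise-filtered and quantile normalised, whose smallest value is 35; it entered an alternative only. Columns were mapped to samples by the library name in each sample's description.

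Counts were tested with edgeR 4.0.16 (quasi-likelihood, TMM, filterByExpr on the 6 libraries compared, Benjamini-Hochberg over all genes tested, adjusted p under 0.05 and absolute log2 fold change above 1), and the SE is the fold change divided by the root of F. Alternatives used limma 3.58.1 and DESeq2 1.42.0 in R 4.3.3, and the fit was tested on simulated counts. Figures, exact intervals and motif counts used Python 3.11.15, scipy 1.17.1 and matplotlib 3.10.9. The members and the pathway and marker lists were chosen with earlier results of these data known. Named pathway genes are the called genes of each list with the largest fold changes, at most 5 a list and comparison, plus those needed to account for a list; 1 called gene of the target list is counted but not reported here by name. The methods state independent biological replicates, and no replicate pair was counted as 1 library (chi-square per degree of freedom on halved counts, where counting noise alone gives about 1, was 1.89 to 6.83). Same-numbered libraries did not deviate together (r between -0.018 and 0.0216), so the numbers do not pair them. Of the pathway genes, Tgfbr3l was not found in the table, and Nrros, Acvrl1, Mstn and Nodal, with Acvr1c in the knockdown comparisons, did not pass the filter.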

Additional observations from a re-analysis of the deposited data

How the results depend on the processing

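The members called in P against D1 (6) and in MBNL KD against RBPMS KD1 (2) were the same genes under all 8 other settings and without each library in turn. In RBPMS KD1 against D1, 0 became 1 with 1 fit of all 12 libraries (Tgfbi, log2 fold change 1.66), where Tgfbi passed the filter only through its counts in P, so that this call is no test of the knockdown. In MBNL KD against D1, 1 became 2 with no filter on low counts and with 1 fit of all 12 libraries, Tgfbi being added at 2.59 in each (in the latter, again admitted through P). Leaving out 1 library gave 1 to 2, Ltbp2 being lost (0.97) without D1 replicate 2 and Tgfbi, where called, being admitted only through MBNL KD. The log2 fold change of Tgfb3 in RBPMS KD1 turned from -0.03 to 0.0153 under quantile normalization and 0.0163 with limma on the authors' normalised values, and its groups overlap. With the replicate number as a block, 6, 0, 1 and 2 members and 26, 3, 8 and 8 pathway genes were called in the 4 comparisons, the same counts as without it, and no member's call changed with the block. Pathway genes called numbered 24 to 27 in P, 2 to 4 in RBPMS KD1, 8 in MBNL KD and 8 to 9 between the knockdowns over all settings. Of the members' log2 fold changes, 262 under other settings and 197 without 1 library kept their direction and their side of the thresholds, and the exceptions were those of Tgfb3 and Ltbp2 just given. Tgfbi in P against D1 ran from 11.97 (limma on the authors' values, whose floor of 35 stands in for its absence) to 16.67. Depth limits Tgfbi outside P, where 3 counts are the smallest level taken as detected, and the lowest level of another member in any library was 1229.6 scaled counts (Ltbp2 in D1).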

Other observations

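In the order of the RefSeq genes on chromosome 17, the listed neighbours of Tgfbi that were in the count table were Smad5, which encodes a Smad of the bone morphogenetic protein branch, and the noncoding genes LOC102555503 and LOC120097786. Smad5, the third gene on one side, had 6534 to 7126 scaled counts in D1, 7560 to 7901 in P, 6191 to 6576 in RBPMS KD1 and 5294 to 5409 in MBNL KD. LOC102555503, the next gene on the other side, had 0 to 5.15 scaled counts in D1, 109 to 149.7 in P, 0 to 6.01 in RBPMS KD1 and 7.91 to 9.95 in MBNL KD. Its fitted log2 fold change in P was 5.49 (SE 0.399). It passed the filter on low counts in that fit only through its P libraries, so this value is a description. LOC120097786, the third gene on that side, had 17.3 to 23.5 in D1, 136 to 144 in P, 49.4 to 74.1 in RBPMS KD1 and 64.7 to 94.9 in MBNL KD, and was called higher than D1 in P (2.78, SE 0.236), RBPMS KD1 (1.60, SE 0.307) and MBNL KD (2.06, SE 0.276). Both noncoding genes were higher in P, while Smad5 differed from D1 by only 0.16 (SE 0.031) there. In the RefSeq gene models used for this order, LOC102555503 does not overlap Tgfbi. The counts were made on an earlier build, and whether reads of Tgfbi were counted for LOC102555503 was not tested.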
